A study of Mus musculus with 12 samples.

Results

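The small leucine-rich proteoglycans (SLRPs) are secreted matrix proteins built around a short chain of leucine-rich repeats, many of which carry glycosaminoglycan side chains. The 10 genes described here were biglycan (Bgn), decorin (Dcn), asporin (Aspn), lumican (Lum), fibromodulin (Fmod), osteomodulin (Omd), Prelp, keratocan (Kera), osteoglycin (Ogn) and epiphycan (Epyc), taken by exact match of the gene symbol in a deposited table of 23358 genes. All 10 were found, and all 10 passed the filter on low counts that left 16190 genes for testing. RNA was sequenced from mouse frontal bone at postnatal day 3, dissected along with nasal bone and with the coronal and frontonasal sutures. The 12 samples form 4 groups of 3: wild type mice and mice heterozygous for the Crouzon syndrome allele FGFR2C342Y/+, each on the C57BL/6 and on the BALB/c strain background. In all groups the dissected tissue was digested with collagenase type II and trypsin before RNA was extracted, so both strains and both genotypes share that step. The labels give replicates 1 to 3 to C57BL/6 wild type, 4 to 6 to C57BL/6 mutant, 13 to 15 to BALB/c wild type and 16 to 18 to BALB/c mutant. They do not say whether samples of a group were separate animals, so p-values measure only the spread between these samples. Neither do they give sex.

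In the extracellular matrix, SLRPs bind collagen fibrils and set their diameter and spacing, and several also bind growth factors such as TGF-beta. Decorin and biglycan carry chondroitin or dermatan sulfate chains and belong with asporin to one class, in which asporin lacks such a chain. Lumican, fibromodulin, osteomodulin, Prelp and keratocan form a class in which keratan sulfate chains are common, and osteoglycin and epiphycan belong to another. In bone, biglycan is needed for normal bone mass and osteomodulin is made by osteoblasts, while keratocan is best known from the cornea and epiphycan from growth cartilage.

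Total counts ranged from 27181658 to 46521546 per sample, and the SLRPs together took 0.417% to 0.62% of them. The C57BL/6 and BALB/c samples carry different flow-cell identifiers in their labels, so strain and sequencing run cannot be told apart. Fgfr2 RNA was measured at 249 CPM (counts per 1000000, scaled with edgeR's TMM factors) in C57BL/6 wild type and 361 CPM in C57BL/6 mutant samples (log2 difference 0.54, SE 0.0999, adjusted p = 0.00405 by edgeR; 0.35 with scaling by total counts), and at 282 and 300 CPM in BALB/c; a gene count does not read the substituted base. Osteoblast markers were abundant in all samples, with 9 markers summing to between 62230 and 142400 CPM. Libraries that stood apart were C57BL/6 wild type replicate 1, which held the lowest level of 5 of the 10 SLRPs among all samples, and C57BL/6 mutant replicate 4, which held the lowest level within its group for 8 of 10. On the first principal component of all tested genes, mutant replicate 4 lay at -69.2, nearer to the C57BL/6 wild type samples than to mutant replicates 5 and 6 at 22.5 and 16.3.

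Several SLRP genes lie next to each other. In the coordinates of the deposited table (mm10 in the submitters' processing notes), Dcn (chr10:97479500-97518162), Lum (chr10:97565501-97572703), Kera (chr10:97607205-97613688) and Epyc (chr10:97644068-97681900) span 202.4 kb of chromosome 10. Aspn (chr13:49544443-49567562), Omd (chr13:49582747-49592609) and Ogn (chr13:49608071-49624500) follow the related gene Ecm2 within 119.7 kb of chromosome 13, all inside the gene Cenpp, which is read from the other strand. Prelp (chr1:133910304-133921401) and Fmod (chr1:134037515-134048277) share 151.1 kb of chromosome 1 with Optc, and Bgn (chrX:73483635-73495936) lies alone on the X chromosome. The chromosome 13 genes and Fmod are shown by the 250 bases before their RefSeq start (GRCm38.p6, plus strand, 5′ to 3′), because Aspn, Ogn and Fmod differed between groups in the tests below while Omd, set between Aspn and Ogn, did not. Capitals mark TATAAA, the letters of a TATA box, and ACCACA, letters found in RUNX sites, each searched on both strands.
Aspn, chr13:49544193-49544442: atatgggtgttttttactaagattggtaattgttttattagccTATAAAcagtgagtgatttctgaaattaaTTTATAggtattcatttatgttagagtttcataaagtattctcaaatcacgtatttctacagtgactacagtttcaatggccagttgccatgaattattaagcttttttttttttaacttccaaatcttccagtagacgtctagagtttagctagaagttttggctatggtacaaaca
Omd, chr13:49582212-49582461: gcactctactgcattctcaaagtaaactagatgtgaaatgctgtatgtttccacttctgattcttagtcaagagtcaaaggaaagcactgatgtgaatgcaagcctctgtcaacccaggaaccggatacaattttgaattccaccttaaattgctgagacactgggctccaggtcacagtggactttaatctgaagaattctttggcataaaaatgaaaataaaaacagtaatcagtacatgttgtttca
Ogn, chr13:49607765-49608014: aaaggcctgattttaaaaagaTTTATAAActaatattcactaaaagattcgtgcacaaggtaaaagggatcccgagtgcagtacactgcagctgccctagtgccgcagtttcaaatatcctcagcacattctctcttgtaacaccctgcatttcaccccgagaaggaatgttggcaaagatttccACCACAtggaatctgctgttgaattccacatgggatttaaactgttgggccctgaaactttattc
Fmod, chr1:134037004-134037253: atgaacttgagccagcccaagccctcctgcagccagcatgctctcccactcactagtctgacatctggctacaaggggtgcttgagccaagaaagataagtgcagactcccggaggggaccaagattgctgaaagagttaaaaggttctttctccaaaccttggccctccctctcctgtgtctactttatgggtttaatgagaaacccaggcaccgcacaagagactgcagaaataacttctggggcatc
The Aspn window held 2 matches to TATAAA and none to ACCACA, and the Ogn window 2 overlapping TATAAA matches, one on each strand, and 1 ACCACA. Neither sequence was found in the Omd or Fmod windows, nor in those of Bgn, Prelp, Kera and Epyc, which are not printed. Prelp and Epyc were also called in tests below. Among 32851 mouse promoter windows of the same length, 12.4% held TATAAA and 14% held ACCACA. The GC content of the windows was 30.0% for Aspn, 38.4% for Omd, 42.0% for Ogn and 51.2% for Fmod. RefSeq windows matched 8 of the 10 SLRPs; Dcn and Lum had no entry.

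Levels of different genes were compared as CPM per kilobase of the coding length in the deposited table. Biglycan was the most abundant SLRP, at a median over 12 samples of 1036 CPM per kb (range 709.9 to 1139), which placed it at the 99.89th percentile of the tested genes. Lumican followed at 459.4 (261.7 to 557.5) CPM per kb and decorin at 359.9 (169.7 to 429.8). Asporin had a median of 187.3 CPM per kb, fibromodulin 134.6, osteoglycin 100.9 and osteomodulin 47.04. These 7 genes lay at the 93.43rd percentile of tested genes or above, whereas Prelp, at 12.27 CPM per kb, lay at the 73.42nd and epiphycan, at 7.813, at the 63.47th. Keratocan was lowest at 1.187 CPM per kb, with a range of 0.4542 to 7.564 that spanned a 16.65-fold difference between samples. The order was the same in 9 of 12 samples; in the 3 C57BL/6 wild type samples epiphycan stood above Prelp. The ranges over all samples overlapped for lumican and decorin, decorin and asporin, asporin and fibromodulin, fibromodulin and osteoglycin, and epiphycan and keratocan, although the first of each pair was higher within each of the 12 samples. Biglycan made up 46.07% of the summed per-kilobase level of the family in C57BL/6 wild type and 46.79% in C57BL/6 mutant samples. Its share was 42.37% in BALB/c wild type and 40.63% in BALB/c mutant samples.

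**Figure D1:**
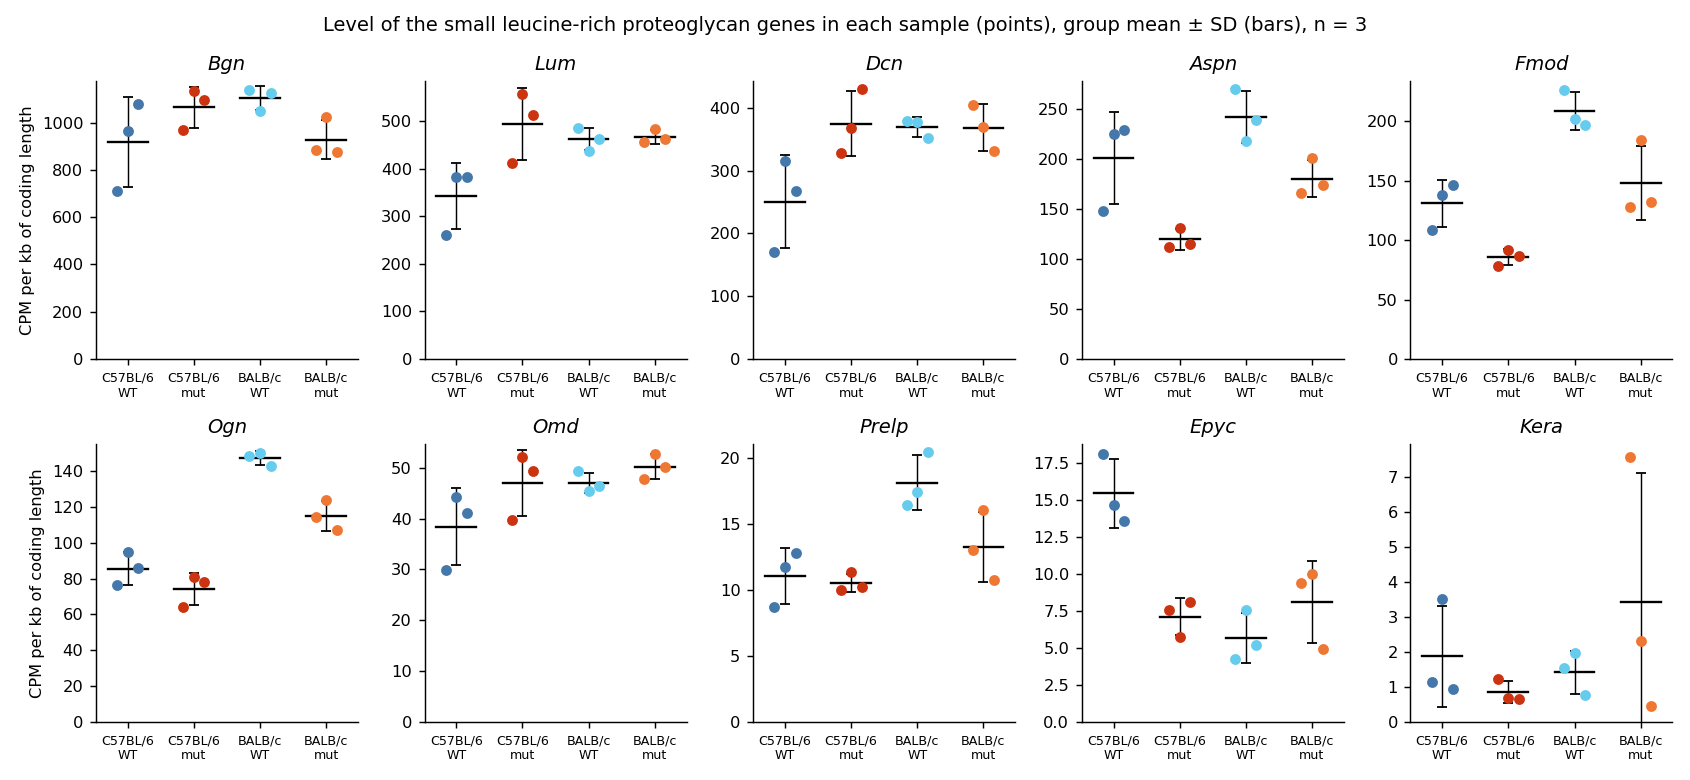
Level of each SLRP in every sample, as CPM per kilobase of coding length on linear axes; points are the 3 samples of a group, and bars are the group mean ± SD. Panels run from Bgn, the most abundant at a median of 1036, to Kera at 1.187, and Epyc is highest in the C57BL/6 wild type samples.

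The first comparison asked how the mutant allele changed the family within C57BL/6. Decorin and lumican, which both bind collagen fibrils, were higher in the mutant, by 1.496-fold and 1.445-fold, while asporin, fibromodulin and epiphycan were lower, by 1.679-, 1.532- and 2.172-fold. In all, 5 of 10 SLRPs were called (2 higher, 3 lower) at an adjusted p under 0.05, with edgeR's quasi-likelihood test and Benjamini-Hochberg adjustment over all 16190 genes; 23.9% of all tested genes were called in this comparison. For 5 of 10 SLRPs the 2 groups of samples did not overlap, against 41.6% of all tested genes. The median absolute log2 difference was 0.56 for the SLRPs and 0.21 for all tested genes, and the signed medians were -0.14 and 0.00.

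In BALB/c none of the 10 SLRPs was called by edgeR, against 0.136% of all tested genes (0.0926% higher, 0.0432% lower). At an unadjusted p under 0.05 there were 4 (Fmod, Ogn, Aspn and Prelp), all lower in the mutant, against 11.7% of all tested genes. DESeq2 called 2 of them, Fmod and Ogn, against 2.32% of the genes it gave an adjusted p. For 5 SLRPs, these 4 and Bgn, every BALB/c mutant sample lay below every BALB/c wild type sample, as against 20.0% of tested genes whose groups did not overlap in either direction. The median absolute log2 difference was 0.39 for the SLRPs and 0.11 for all tested genes.

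**Figure D2:**
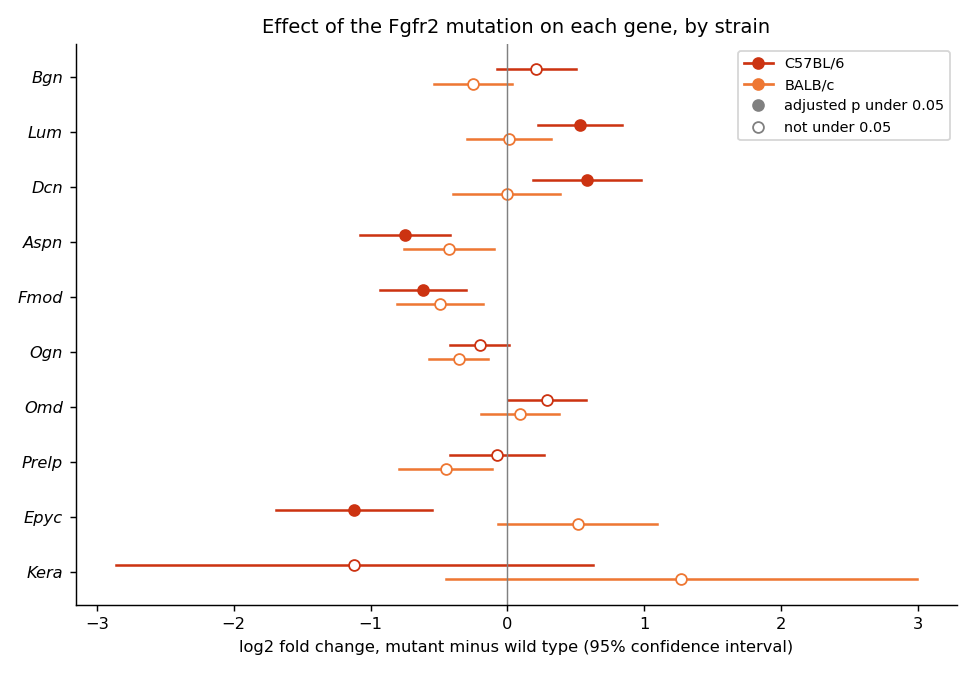
Log2 difference (mutant minus wild type) of each SLRP with its 95% confidence interval from edgeR, in C57BL/6 and in BALB/c, from 3 samples per group; filled points have an adjusted p under 0.05. Fmod and Aspn lie below 0 in both strains, while Dcn and Lum lie above 0 in C57BL/6 and close to 0 in BALB/c.

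Decorin binds collagen fibrils and TGF-beta through its core protein. Its RNA was at 353.6, 656.7 and 557.6 CPM in the 3 C57BL/6 wild type samples and at 683, 766.6 and 895.7 CPM in the mutant. All mutant samples were above all wild type samples, and wild type replicate 1 was the lowest of the 12 libraries. The log2 difference was 0.58 (SE 0.181, adjusted p = 0.0372 by edgeR). That call was close to the threshold: without C57BL/6 wild type replicate 1 it was 0.39 (adjusted p = 0.0548), without wild type replicate 3 0.63 (0.0534), without mutant replicate 5 0.60 (0.077) and without mutant replicate 6 0.47 (0.136). Leaving out a sample of the other strain, which changes the scaling, the estimate of the spread and the set of genes tested, also took it past the threshold for BALB/c wild type replicates 13 (adjusted p = 0.052) and 14 (0.0511) and BALB/c mutant replicate 17 (0.0522). It was likewise 0.40 (0.0574) with scaling by total counts and 0.57 (0.141) with only the 2 C57BL/6 groups in the fit. In BALB/c, decorin was at 791.5, 787.6 and 733.6 CPM in wild type and 844.7, 768.8 and 690.2 CPM in mutant samples. These groups overlapped, with a log2 difference of -0.01 (95% confidence interval -0.40 to 0.39).

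Biglycan, which like decorin carries chondroitin or dermatan sulfate in most tissues, was not called for genotype in either strain. Its level was 1696, 2309 and 2583 CPM in C57BL/6 wild type and 2313, 2708 and 2615 CPM in C57BL/6 mutant samples, and the groups overlapped (log2 difference 0.21, SE 0.132, adjusted p = 0.255 by edgeR). In BALB/c the 3 wild type values, 2721, 2503 and 2691 CPM, lay above the 3 mutant values, 2112, 2444 and 2093 CPM. The BALB/c log2 difference was -0.25 (95% confidence interval -0.54 to 0.04, adjusted p = 0.501 by edgeR). Since Bgn is X-linked, sex-linked transcripts were read: Y-linked transcripts stood above Xist in 3 of 3 C57BL/6 wild type samples and in 1 of 3 samples of each other group. With Y-linked expression as a covariate, the Bgn log2 difference in C57BL/6 was 0.21 (adjusted p = 0.351 by edgeR). It was 0.03 with scaling by total counts, 0.08 without C57BL/6 wild type replicate 1 and 0.34 without wild type replicate 3, and was not called in these fits.

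Asporin, the class member with a run of aspartate residues and no glycosaminoglycan chain, is known from periodontal ligament, perichondrium and periosteum. It was measured at 347.3, 529.3 and 537.3 CPM in C57BL/6 wild type and at 263.4, 308.2 and 270.7 CPM in C57BL/6 mutant samples. The mutant samples all lay below the wild type samples, and wild type replicate 1 was the wild type sample nearest to them. The log2 difference was -0.75 (SE 0.151, adjusted p = 0.00603 by edgeR), and it ranged from -0.90 to -0.64 when each of the 12 samples was left out, called each time. In BALB/c, asporin was at 633.5, 511.1 and 560.9 CPM in wild type and 390.2, 471.7 and 409.1 CPM in mutant samples. Again the groups did not overlap, but the log2 difference of -0.42 (SE 0.151) had an unadjusted p of 0.0157 and an adjusted p of 0.299 in edgeR's test.

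Lumican organises collagen fibrils in cornea, skin and bone matrix. It was at 543, 793.3 and 793.3 CPM in C57BL/6 wild type and at 854, 1157 and 1067 CPM in C57BL/6 mutant samples, with no overlap. The log2 difference was 0.53 (SE 0.141, adjusted p = 0.0198 by edgeR), and it lost its call without C57BL/6 mutant replicate 5 (0.44, adjusted p = 0.0761) or mutant replicate 6 (0.50, adjusted p = 0.0698), and with only the 2 C57BL/6 groups in the fit (0.52, adjusted p = 0.106). With scaling by total counts it was 0.35 (adjusted p = 0.0258). The BALB/c samples held 1009, 909.6 and 962.1 CPM in wild type and 946.2, 1004 and 960.5 CPM in mutants, which overlapped throughout (log2 difference 0.02, 95% confidence interval -0.29 to 0.32).

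Fibromodulin, which is abundant in tendon and guides the assembly and cross-linking of collagen fibrils, was lower in the C57BL/6 mutant. Wild type samples held 311.1, 393.2 and 418.3 CPM and mutant samples 223, 261 and 248.6 CPM, so the groups did not overlap. The log2 difference was -0.62 (SE 0.144, adjusted p = 0.0114 by edgeR) and ranged from -0.71 to -0.53 over the 12 fits that each left out a sample, all of them called. In BALB/c the wild type samples held 646.6, 576.7 and 562.2 CPM and the mutant samples 365.4, 525.5 and 376.5 CPM. All 3 mutant samples lay below the wild type samples, with replicate 17 closest to them. The BALB/c log2 difference of -0.49 (SE 0.143) had an unadjusted p of 0.00492 and an adjusted p of 0.204 in edgeR's test.

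Osteomodulin, a keratan sulfate proteoglycan of mineralised matrix made by osteoblasts, was not called for genotype. It was at 52.17, 77.62 and 72.05 CPM in C57BL/6 wild type and 69.54, 91.18 and 86.43 CPM in C57BL/6 mutant samples, which overlapped (log2 difference 0.29, SE 0.131, adjusted p = 0.118 by edgeR). Without C57BL/6 mutant replicate 4, the lowest of its group, the log2 difference was 0.40 and its adjusted p 0.0286. Without C57BL/6 wild type replicate 1 it was 0.16 (adjusted p = 0.301 by edgeR), and with scaling by total counts 0.11 (adjusted p = 0.409). BALB/c samples ranged from 79.6 to 92.21 CPM, and the log2 difference there was 0.10 (95% confidence interval -0.19 to 0.38). Of the 2246 words of 50 bases in Omd transcripts, 3.70% also occur in another gene, so a small part of its reads could have been assigned elsewhere.

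Prelp, whose core protein binds heparan sulfate and collagen, was at 31.28, 42.27 and 46.1 CPM in C57BL/6 wild type and 35.97, 40.84 and 36.91 CPM in mutant samples (log2 difference -0.07, SE 0.157, adjusted p = 0.77 by edgeR). In BALB/c the wild type samples, at 59.27, 62.81 and 73.84 CPM, lay above the mutant samples, at 46.83, 57.86 and 38.78 CPM. That log2 difference of -0.45 (SE 0.156) had an unadjusted p of 0.014 and an adjusted p of 0.291 in edgeR's test.

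Keratocan was the member with the largest spread within groups. The C57BL/6 wild type samples held 2.234, 6.865 and 1.823 CPM, the C57BL/6 mutant samples 2.395, 1.31 and 1.293, the BALB/c wild type samples 3.005, 3.829 and 1.464, and the BALB/c mutant samples 14.75, 4.477 and 0.8858 CPM. Its 2 highest libraries, BALB/c mutant replicate 16 and C57BL/6 wild type replicate 2, were also the libraries with the most skeletal muscle RNA, at a sum over 7 markers of 399.3 and 73.05 CPM; the medians of the 4 groups lay between 2.892 and 25.05 CPM. The part of muscle tissue in the Kera values was not tested. Neither genotype difference was called: the log2 difference was -1.12 (SE 0.80) in C57BL/6 and 1.27 (SE 0.79) in BALB/c. Without C57BL/6 wild type replicate 2 the first was -0.28, and without BALB/c mutant replicate 16 the second was -0.03. With Y-linked expression as a covariate the C57BL/6 value was -0.73.

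Epiphycan, a dermatan sulfate proteoglycan of growth cartilage, was highest in the C57BL/6 wild type samples, at 31.17, 25.23 and 23.43 CPM. The C57BL/6 mutant samples held 12.97, 9.846 and 13.96 CPM, all below the wild type, with a log2 difference of -1.12 (SE 0.262, adjusted p = 0.0116 by edgeR). It stayed called in the 12 fits that each left out a sample, from -1.22 to -0.97. In BALB/c the direction was the other way: wild type samples held 7.287, 12.97 and 8.96 CPM and mutant samples 16.19, 17.22 and 8.415 CPM. Those groups overlapped through mutant replicate 18, and the log2 difference of 0.51 (95% confidence interval -0.07 to 1.10) was not called. Part of the Epyc exons, 40.7% of their bases, overlaps the gene Gm10754 on the opposite strand, which had 0 to 12 counts per sample against 194 to 1200 for Epyc; whether counting used strand is not given in the sources used here.

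Osteoglycin, also called mimecan, was first isolated from bone and controls collagen fibril size in several tissues. It was at 193.6, 240.6 and 218.3 CPM in C57BL/6 wild type and 163.3, 205.4 and 198 CPM in C57BL/6 mutant samples. These groups overlapped, and the log2 difference of -0.20 (SE 0.0986, adjusted p = 0.148 by edgeR) was not called. When libraries were scaled by total counts in place of TMM, which moved the median of all genes by -0.20 in this comparison, it was -0.40 with an adjusted p of 0.00461. BALB/c wild type samples held 378.1, 381.2 and 363 CPM and mutant samples 291.5, 314.8 and 272 CPM. The mutant samples all lay below the wild type samples, with a log2 difference of -0.35 (SE 0.0985), an unadjusted p of 0.00377 and an adjusted p of 0.187 in edgeR's test.

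Ratios between SLRPs of one library do not depend on how the libraries were scaled. They are given as a description, since the pairs were picked after their values had been seen. The Aspn to Lum ratio (CPM per kb) was 0.5645, 0.5889 and 0.5977 in C57BL/6 wild type and 0.2722, 0.2351 and 0.2239 in C57BL/6 mutant samples. In BALB/c it was 0.5542, 0.4959 and 0.5146 in wild type and 0.364, 0.4146 and 0.3759 in mutant samples. The groups did not overlap in either strain, and the 2 wild type groups lay close together, within 0.4959 to 0.5977. C57BL/6 wild type replicate 1, which was low for most SLRPs, fell in with its group here. Fmod to Lum gave 0.3598 to 0.4158 in C57BL/6 wild type against 0.1638 to 0.1895 in the mutant, and 0.4241 to 0.4652 against 0.2803 to 0.3798 in BALB/c. For the neighbouring genes Aspn and Omd the ratio was 4.958 to 5.554 in C57BL/6 wild type and 2.332 to 2.821 in the mutant, and 4.782 to 5.466 against 3.465 to 3.809 in BALB/c. Ogn to Omd, the next pair on chromosome 13, was 2.089 to 2.558 against 1.553 to 1.619 in C57BL/6 and 3.02 to 3.301 against 2.133 to 2.404 in BALB/c. In each of these 4 ratios, all mutant samples lay below all wild type samples of their strain.

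**Figure D3:**
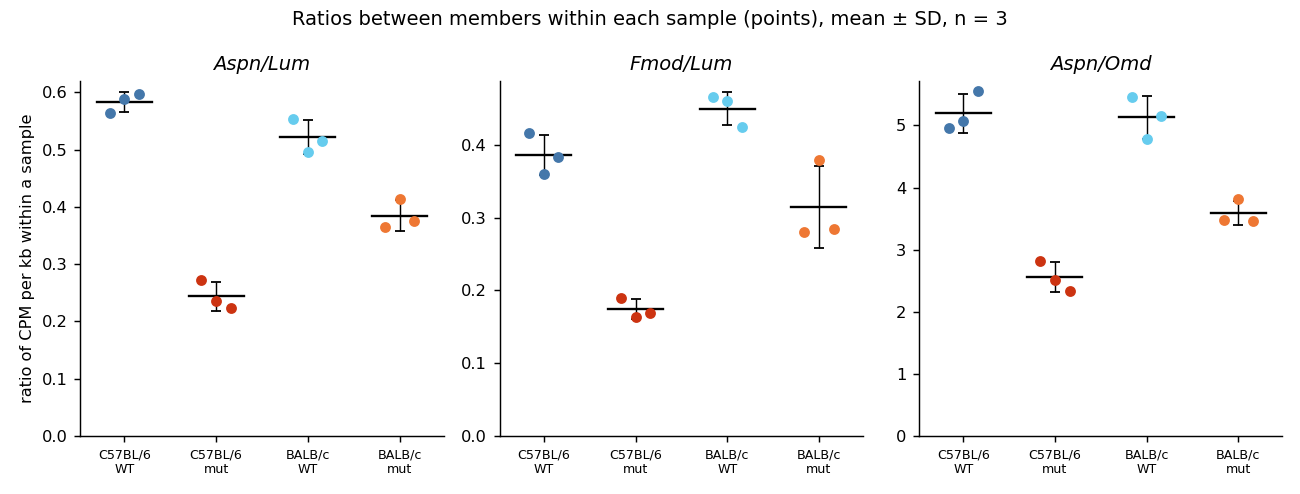
Ratios of Aspn to Lum, Fmod to Lum and Aspn to Omd in every sample, computed from CPM per kilobase; points are samples and bars the group means. In both strains the mutant points lie below the wild type points, and the C57BL/6 mutant points are the lowest (0.2239 to 0.2722 for Aspn to Lum).

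The strains were compared within each genotype. In wild type samples, 6 of 10 SLRPs were called (5 higher in BALB/c, 1 lower), against 48.5% of all tested genes; 7 of 10 had groups that did not overlap, against 57.5%. In log2 units, BALB/c exceeded C57BL/6 by 0.78 for osteoglycin (adjusted p = 9.605e-05 with an SE of 0.0990, by edgeR), by 0.71 for Prelp (0.00317, SE 0.157) and by 0.67 for fibromodulin (0.00272, SE 0.144). Epiphycan was lower, at -1.45 (SE 0.268, adjusted p = 0.00112), and these 4 were called in each of the 12 fits that left out a sample. Decorin (0.56, adjusted p = 0.0229) and lumican (0.44, adjusted p = 0.0232) were higher in BALB/c as well, but near the threshold. Decorin's call was lost without BALB/c wild type replicate 13 (0.54, adjusted p = 0.061) or 14 (0.54, adjusted p = 0.0568), and its value was 0.35 (adjusted p = 0.0356) without C57BL/6 wild type replicate 1. That of lumican was lost without C57BL/6 wild type replicate 1 (0.28, adjusted p = 0.0561), without BALB/c wild type replicate 13 (0.40, adjusted p = 0.0726) or 15 (0.44, adjusted p = 0.0531), and with Y-linked expression as a covariate (0.44, adjusted p = 0.0571). Omd was not called at 0.29 (adjusted p = 0.0842), but passed without C57BL/6 wild type replicate 2 (0.41, adjusted p = 0.0309) or C57BL/6 mutant replicate 4 (0.29, adjusted p = 0.0468). Bgn (0.27, adjusted p = 0.117) passed without C57BL/6 wild type replicate 3 (0.40, adjusted p = 0.026), and Aspn (0.27, adjusted p = 0.157) was not called. Without C57BL/6 wild type replicate 1 these 3 differences were smaller, at 0.14 for Omd, 0.11 for Bgn and 0.10 for Aspn, with adjusted p-values of 0.278, 0.348 and 0.496.

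Among mutant samples the call was made for 3 of 10 SLRPs, all higher in BALB/c, against 36.9% of all tested genes (18% higher, 18.9% lower). Fibromodulin was higher by 0.79 (SE 0.144, adjusted p = 0.00124 by edgeR), osteoglycin by 0.63 (SE 0.0988, adjusted p = 0.000455) and asporin by 0.59 (SE 0.151, adjusted p = 0.00924), each called in all 12 fits that left out a sample. The same 3 genes were those whose groups did not overlap, against 50.2% of tested genes. Decorin and lumican, at -0.03 and -0.08, were not called. Prelp (0.34, adjusted p = 0.113) and Kera (2.00, adjusted p = 0.0713) passed without BALB/c mutant replicate 18, at 0.47 (adjusted p = 0.0419) and 2.52 (adjusted p = 0.0135). Prelp was at 0.18 (adjusted p = 0.403) without BALB/c mutant replicate 17, and Kera at 0.69 (adjusted p = 0.5) without replicate 16.

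Whether the genotype difference itself differed between the strains was tested as an interaction, the difference in BALB/c minus that in C57BL/6. For 1 of 10 SLRPs, epiphycan, it was called, against 10% of all tested genes (5.46% higher, 4.58% lower). Its value was 1.63 (SE 0.374, 95% confidence interval 0.818 to 2.448, adjusted p = 0.0226 by edgeR), from log2 differences of -1.12 in C57BL/6 and 0.51 in BALB/c. The call was lost without C57BL/6 mutant replicate 5 (1.502, adjusted p = 0.0509), BALB/c wild type replicate 13 (1.47, adjusted p = 0.0544) or 15 (1.58, adjusted p = 0.0568), and BALB/c mutant replicate 16 (1.52, adjusted p = 0.0541) or 17 (1.45, adjusted p = 0.0569). For decorin, lumican and biglycan the interaction was negative, at -0.59 (unadjusted p = 0.0405, adjusted p = 0.149 by edgeR), -0.52 (0.0237 and 0.112) and -0.46 (0.0288 and 0.124). Lumican passed without C57BL/6 mutant replicate 4 (-0.63, adjusted p = 0.0324) and biglycan without C57BL/6 wild type replicate 3 (-0.59, adjusted p = 0.0475), and DESeq2 called both, against 17.5% of the genes it gave an adjusted p. With scaling by total counts the interaction was smaller for these genes, at -0.37 for decorin, -0.30 for lumican and -0.25 for biglycan, and without C57BL/6 wild type replicate 1 it was -0.39 for decorin. Asporin (0.32, 95% confidence interval -0.14 to 0.79) and fibromodulin (0.12) were not called (0.54 and 0.34 with scaling by total counts, also not called), so a difference between the strains in the size of their change was not detected with 3 samples a group.

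Neighbouring genes did not all move alike. In the chromosome 10 cluster, the C57BL/6 log2 differences were 0.58 for Dcn, 0.53 for Lum, -1.12 for Kera and -1.12 for Epyc in genome order, with the first pair called higher, Kera not called (-0.28 without C57BL/6 wild type replicate 2) and Epyc called lower. In the chromosome 13 cluster they were -0.55 for Ecm2, -0.75 for Aspn, 0.29 for Omd and -0.20 for Ogn, with Ecm2 and Aspn called. Cenpp, which encloses the chromosome 13 genes on the other strand, had 104 to 222 counts per sample, against at least 2008 for Omd, 7230 for Ogn and 10046 for Aspn.

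**Figure D4:**
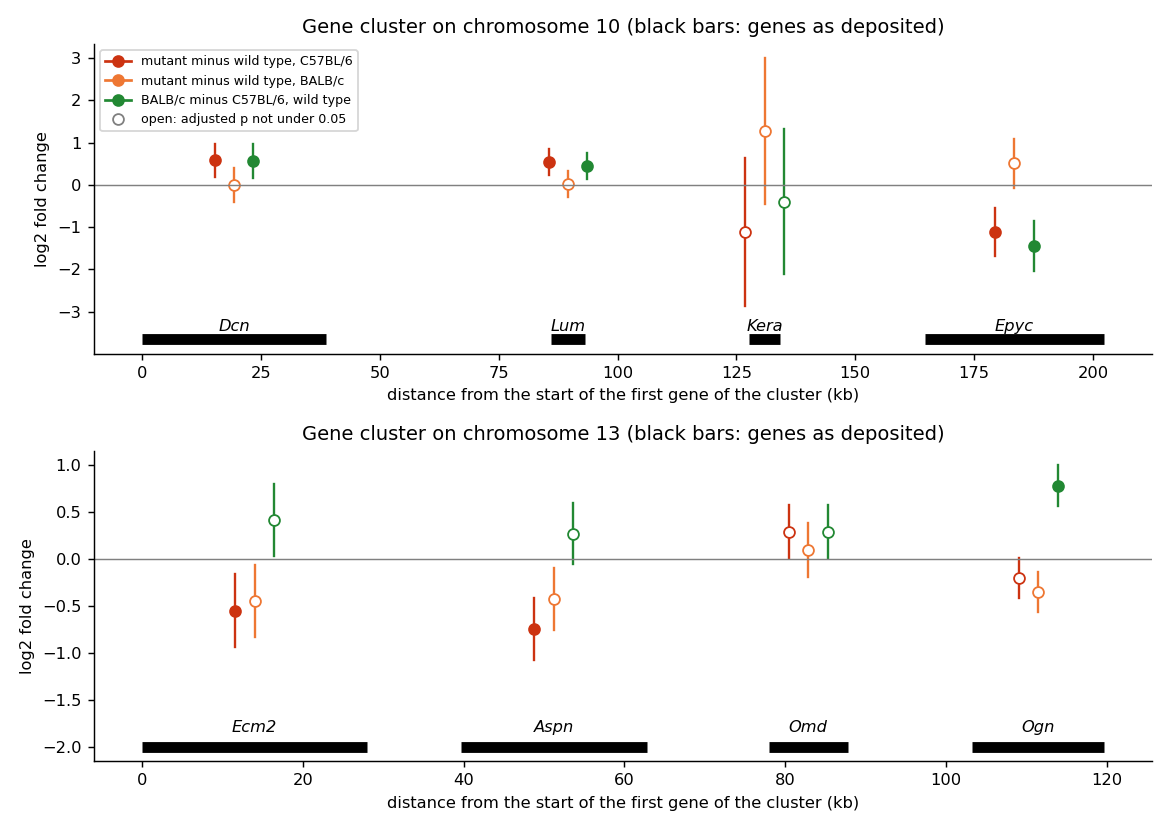
Log2 differences with 95% confidence intervals for the genes of the chromosome 10 and chromosome 13 clusters. Points are set at each gene's midpoint, in kilobases from the start of the first gene, and shifted slightly for each comparison. Colours stand for genotype in C57BL/6, genotype in BALB/c and strain in wild type. Dcn and Lum lie above 0 for genotype in C57BL/6 where Epyc lies at -1.12, and Omd lies at 0.29 between Aspn at -0.75 and Ogn at -0.20.

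Markers of the cell types that the dissected tissue could hold also differed between groups. In bulk RNA, fewer cells of a type and less RNA per cell cannot be told apart. Chondrocyte markers, a list of 9 genes led by Col2a1, summed to 4949 to 7339 CPM in C57BL/6 wild type samples and to 276.7, 283.9 and 2785 CPM in C57BL/6 mutant samples, the last being replicate 4; 4 of 9 were called lower. In BALB/c the sums were 626.9 to 1780 CPM in wild type and 1051, 1299 and 5044 CPM in mutant samples, and 0 of 9 were called by edgeR or DESeq2 or had an unadjusted p under 0.05. The sample with the highest chondrocyte marker sum of its group also had the highest Epyc in C57BL/6 wild type and BALB/c mutant, and did not in C57BL/6 mutant and BALB/c wild type. Tendon and ligament markers (5 genes, among them Scx and Tnmd) summed to 75.6 to 135.4 CPM in C57BL/6 wild type, 68.48 to 73.34 in C57BL/6 mutant, 186.3 to 208.8 in BALB/c wild type and 140.8 to 183.5 CPM in BALB/c mutant samples. Of these 5 markers, 2 were called lower in the C57BL/6 mutant. Osteoblast markers summed to 62230 to 109700 CPM in C57BL/6 wild type and 117500 to 142400 CPM in C57BL/6 mutant samples, where 7 of 9 were called higher beside Dcn and Lum. The 9 fibroblast and suture mesenchyme markers summed to 8481 to 12830 CPM and 10060 to 11780 CPM in the same groups, which overlapped; 2 of them were called higher and 2 lower. Erythroid markers fell in the C57BL/6 mutant, with 6 of 7 called lower and sums of 184.8 to 248.4 CPM in wild type and 49.84 to 77.07 CPM in mutant samples. Of 6 neutrophil markers 3 were called lower. Between the wild type strains, beside the 5 SLRPs higher in BALB/c, 4 of 5 tendon and ligament markers and 4 of 9 fibroblast and suture mesenchyme markers were called higher in BALB/c and 1 of the latter lower. The fibroblast sums there, 13420 to 15500 CPM in BALB/c, did not overlap those of C57BL/6. Beside Epyc, 5 of 9 chondrocyte markers were called lower in BALB/c wild type. So were 7 of 7 tested airway and olfactory markers and the 1 tested meninges marker. Called higher in BALB/c wild type were 5 of 7 erythroid, 3 of 6 neutrophil, 2 of 5 osteoclast and 1 of 4 endothelial markers. Of 9 osteoblast markers, 3 were called higher there and 1 lower. Between the mutants, 3 of 5 tendon and ligament, 2 of 9 fibroblast and 6 of 7 skeletal muscle markers were called higher in BALB/c. So were 7 of 7 erythroid, 6 of 6 neutrophil and 2 of 2 tested adipocyte markers. Lower in BALB/c mutants were 5 of 5 osteoclast, 4 of 7 tested airway and olfactory, and 1 of 9 fibroblast markers. Of 9 osteoblast markers, 2 were called higher and 5 lower. The skeletal muscle sums were 399.3, 25.05 and 3.494 CPM in BALB/c mutant and 1.407 to 5.011 CPM in C57BL/6 mutant samples. Airway and olfactory epithelium markers (8 genes) reached 328.5 to 660.8 CPM in C57BL/6 wild type and 155.4 CPM in C57BL/6 mutant replicate 4, and 2.282 to 3.88 CPM in the other 8 samples; Bpifa1, Cyp2g1 and Sec14l3 were at 0 in BALB/c wild type. The part of these cell types in the SLRP differences was not tested.

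**Figure D5:**
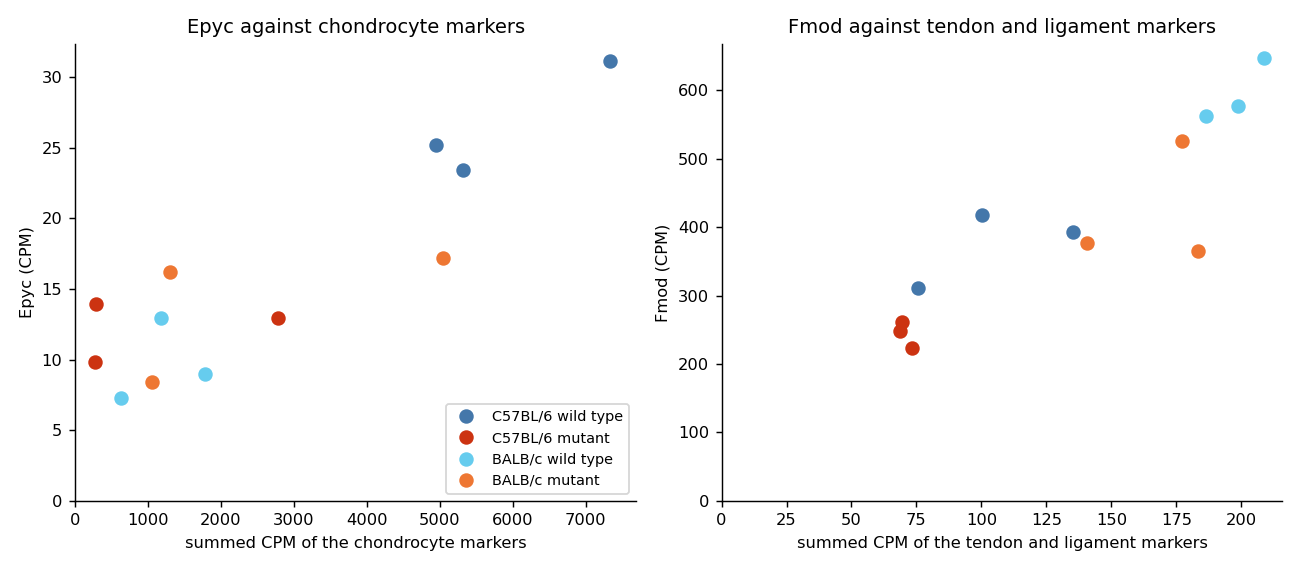
Epyc against the summed chondrocyte markers and Fmod against the summed tendon and ligament markers, both in CPM, with 1 point per sample coloured by group. The C57BL/6 wild type points lie at 4949 to 7339 CPM of chondrocyte markers, with BALB/c mutant replicate 17 among them at 5044, and the C57BL/6 mutant points have the lowest tendon and ligament sums (68.48 to 73.34 CPM).

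Genes that act with the SLRPs were counted from lists by role, first in the C57BL/6 genotype comparison, where 11.3% of all tested genes were called higher and 12.6% lower. In BALB/c none of the 99 tested genes of these 9 lists was called by edgeR, 17 had an unadjusted p under 0.05 against 11.7% of all tested genes, and DESeq2 called 3 (Podn, Tgfb3 and Bmp4, named after their values were seen) against 2.32%. Of 8 other SLRP genes and near relatives, 1 was called higher and 3 lower. Podnl1, a podocan relative, was higher by 0.67 (adjusted p = 0.000456), called in all 12 fits that left out a sample. Chad, the cartilage protein chondroadherin, was at -1.45 (adjusted p = 0.0149) and its relative Chadl at -2.13 (adjusted p = 0.0359), beside the lower chondrocyte markers. The Chad call was lost without C57BL/6 wild type replicate 1 (-1.26, adjusted p = 0.0523), mutant replicate 5 (-1.19, 0.0518) or mutant replicate 6 (-1.29, 0.0652). The Chadl call was lost without those samples (-1.88, -1.71 and -1.82), without wild type replicate 2 (-2.22, adjusted p = 0.0539) or without BALB/c wild type replicate 14 (-2.13, adjusted p = 0.0502), and without mutant replicate 4, where the chondrocyte marker sum was highest in its group, it was -3.42 (adjusted p = 0.000879). Ecm2, at -0.55 (adjusted p = 0.0426 by edgeR), kept its call only without BALB/c wild type replicate 13 or 14; leaving out any of the other samples gave adjusted p-values from 0.0508 (BALB/c mutant replicate 16) to 0.129 (C57BL/6 wild type replicate 3, log2 difference -0.42). With only the 2 C57BL/6 groups in the fit, the adjusted p was 0.0589 for Chad and 0.0881 for Chadl. With Y-linked expression as a covariate, it was 0.0735 for Chadl and 0.0788 for Ecm2.

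Glycosaminoglycan synthesis did not move as a block. For the linker that joins the chain to the core protein, 1 of 7 genes was called higher and 2 lower. For chondroitin and dermatan sulfate synthesis, 4 of 16 were called higher and 1 lower (median log2 difference 0.25, against 0.00 for all tested genes): Ust, which sulfates uronic acid residues, was higher by 0.50 (adjusted p = 0.00848) and Csgalnact1, which starts the chondroitin chain, lower at -0.78 (adjusted p = 0.00622), both by edgeR; with scaling by total counts the Ust difference was 0.31 (adjusted p = 0.0296). For keratan sulfate synthesis, 1 of 9 was called higher and 2 lower, and for sulfate supply 0 of 6 higher and 1 lower. Most of these calls were not stable. Over the 12 fits that left out a sample, the linker genes gave 0 to 2 higher and 0 to 2 lower, the chondroitin and dermatan sulfate genes 1 to 7 higher and 1 lower, the keratan sulfate genes 0 to 1 and 0 to 2, and sulfate supply 0 and 0 to 1. With scaling by total counts, the linker, chondroitin and dermatan sulfate, keratan sulfate and sulfate supply lists gave 0, 1, 0 and 0 genes higher and 2, 4, 3 and 2 lower.

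Among 13 fibrillar and fibril-associated collagens, the ligands of most SLRPs, 1 was called higher and 1 lower. The lower one was Col11a1, a chain of cartilage fibrils, at -0.61 (adjusted p = 0.00773 by edgeR). Of 14 genes for collagen cross-linking and propeptide removal, 4 were called higher and 3 lower. Bmp1, the proteinase that removes the procollagen C-propeptide and also processes several SLRP precursors, was higher by 0.56 (adjusted p = 0.00169; 0.37 with scaling by total counts), and Pcolce2, an enhancer of that cleavage, lower at -1.17 (adjusted p = 0.00826). Of 11 tested genes for enzymes that cleave SLRP core proteins, 4 were called higher and none lower, with a median log2 difference of 0.28. Mmp9 was higher by 0.97 (adjusted p = 0.000207) and Mmp13, the collagenase of bone and hypertrophic cartilage, by 0.69 (adjusted p = 0.00167). Mmp9 is made by osteoclasts and is one of 5 osteoclast markers, all called higher; the other 4 (Acp5, Ctsk, Ocstamp and Dcstamp) summed to 2053 to 2536 CPM in C57BL/6 wild type and 4344 to 4900 CPM in C57BL/6 mutant samples, and their part in the Mmp9 difference was not tested. Of 16 signalling proteins bound by SLRP core proteins, 4 were called higher and 1 lower: Tgfb1, bound by decorin and biglycan, was higher by 0.57 (adjusted p = 0.00183) and Tgfb2 lower at -1.95 (adjusted p = 0.0103). The Tgfb2 difference was -0.89 without C57BL/6 wild type replicate 1 (adjusted p = 0.00111 by edgeR) and lost its call with only the 2 C57BL/6 groups in the fit (-1.94, adjusted p = 0.0736). The genes named for the lists from the linker onward were chosen as those whose call stood in all 12 fits that left out a sample, so their stability is not a result. With a sample left out, the collagens gave 0 to 2 genes higher and 1 to 2 lower, cross-linking and propeptide removal 1 to 5 and 1 to 4, the cleaving enzymes 4 to 5 and 0, and the signalling proteins 1 to 4 and 1. With scaling by total counts these 4 lists gave 1, 2, 4 and 1 higher and 3, 5, 0 and 2 lower.

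Between wild type strains the same lists gave 2 higher and 1 lower in BALB/c of 8 relatives, 1 and 2 of 7 linker genes, 5 and 4 of 16 chondroitin and dermatan sulfate genes, 2 and 0 of 9 keratan sulfate genes, and 2 and 3 of 6 sulfate supply genes. The background was 22.8% of all tested genes higher and 25.6% lower. For collagens the counts were 4 and 1 of 13, for cross-linking and propeptide removal 5 and 4 of 14, for the cleaving enzymes 6 and 1 of 11, and for the signalling proteins 5 and 5 of 16. With a sample left out, the counts of higher genes ranged from 0 to 3 for the linker, 3 to 6 for chondroitin and dermatan sulfate, 0 to 3 for sulfate supply, 1 to 5 for collagens and 3 to 6 for signalling proteins, and the collagens gave 1 to 3 lower. With scaling by total counts, 0 linker and 0 sulfate supply genes were higher, and 3 relatives and 3 collagens were lower. Optc, the opticin gene next to Prelp and Fmod, and Podn, podocan, were the 2 relatives that were higher in BALB/c, at 1.33 and 1.35 on the log2 scale. Optc was near the floor, at 12, 16 and 12 counts in C57BL/6 wild type and 20, 32 and 36 in BALB/c wild type samples.

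The genes whose pattern over the 12 samples was most like that of each SLRP were found among 11151 genes (11152 for Kera) as the smallest root mean square difference of centred log2 CPM, for the 8 SLRPs that varied by more than 1 log2 unit. Within the family, where all 10 were compared, Lum and Omd were the closest pair, at 0.0940 log2 units, followed by Dcn and Lum (0.141), Bgn and Omd (0.168), Dcn and Omd (0.176), Bgn and Lum (0.176), Fmod and Aspn (0.179) and Ogn and Prelp (0.186). Outside it, Eda was nearest to Dcn (0.0719), Tmem150a to Lum (0.0756), Megf6 to Aspn (0.132), Col8a2 to Fmod (0.125), Dact3 to Ogn (0.126), Igf2 to Prelp (0.144), Herc3 to Epyc (0.277) and Cilp to Kera (0.659). The distance for Kera was the largest of these 8. Distances are small between genes that both vary little, so their order also reflects each gene's own spread. The SD of centred log2 CPM was 0.1935 for Bgn, 0.2175 for Omd, 0.2693 for Lum, 0.3399 for Dcn and 0.3593 for Prelp. It was 0.3991 for Ogn, 0.4096 for Aspn, 0.4871 for Fmod, 0.634 for Epyc and 1.083 for Kera.

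The authors' deposited table gives its own fold changes and q-values. In C57BL/6, the authors' deposited table has Aspn at -0.71 (q = 9.81e-06), Lum at 0.51 (q = 6.65e-05) and Dcn at 0.57 (q = 0.000173), on the same side as the values above. Fmod stands in the authors' deposited table at -0.49 (q = 0.113) and Epyc at -0.26 (q = 0.523), where edgeR on the counts gave -0.62 and -1.12. For BALB/c the authors' deposited table has Ogn at -0.33 (q = 0.0324), Fmod at -0.39 (q = 0.595) and Aspn at -0.39 (q = 0.163). Strain comparisons in the authors' deposited table are C57BL/6 minus BALB/c. For wild type, the authors' deposited table has Ogn at -0.80 (q = 7.46e-16), Dcn at -0.60 (q = 2.6e-05), Lum at -0.46 (q = 0.000134), Fmod at -0.57 (q = 0.0375), Omd at -0.29 (q = 0.0272) and Bgn at -0.27 (q = 0.03). Prelp, at -0.57 (q = 0.0504), and Epyc, at 0.31 (q = 0.347), do not pass 0.05 in the authors' deposited table and were called by edgeR above, whereas Omd and Bgn pass there and were not called. For mutants, the authors' deposited table has Fmod at -0.67 (q = 0.0157), Ogn at -0.66 (q = 5.77e-11) and Aspn at -0.61 (q = 6.8e-05).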

How the data were processed

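Per the submitters' processing notes, reads were handled with bcl2fastq, TopHat2 2.0.6, HTSeq and DESeq2 on mm10; the annotation and the use of strand are not given in the sources used here. The authors deposited counts per gene, RPKM values, a coding length, and for each of their own comparisons a log2 fold change, a p-value and a q-value. All counts were even, so each read of a pair may have been counted; halving them changed no SLRP call. The deposited RPKM equalled count per length and total and was not tested. The table had 0 columns of no sample and 69 entries with a repeated symbol. No pair of replicates was identical.

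From the counts, edgeR 4.0.16 (R 4.3.3) was run with TMM scaling, its filter at a minimum count of 10 and a total of 15, a model of 4 group means over 12 samples, and the quasi-likelihood test. Benjamini-Hochberg adjustment covered 16190 genes and calls used 0.05; intervals are 95%. CPM uses TMM-scaled totals. limma 3.58.1 (voom) and DESeq2 1.42.0 were alternatives, with other scaling, no filter, a Y-linked covariate, only the groups compared, and each sample left out. The procedure was tested on simulated counts. Figures were drawn with matplotlib 3.10.9 in Python 3.11.15. The SLRPs and all lists were chosen with earlier results of these data known. All SLRPs are named. Other genes named come from the list members with the largest called change in each direction, the relatives, and the nearest genes by pattern. Of the relatives, Nyx and Tsku are not described. For strain, the only list genes described are Optc and Podn, in wild type. For genotype in C57BL/6, the report gives by name, besides the relatives, only list genes called in every fit that left out a sample; this was chosen after the values were seen. For the interaction, all list genes under the rule that were called are named.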

Additional observations from a re-analysis of the deposited data

Results flagged for a closer look

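For these genes the genotype difference differed between BALB/c and C57BL/6 by the interaction test of edgeR with Benjamini-Hochberg adjustment (BALB/c minus C57BL/6, log2 scale), where 10% of all tested genes were called. Epyc, the SLRP among them, had 1.63 (adjusted p = 0.0226) and was called in 7 of the 12 fits that each left out a sample. Among the relatives, Podnl1 had -0.77 (adjusted p = 0.00349) and was called in 12 of 12, while Podn had -0.77 (adjusted p = 0.0448) and was called in 3. Of the glycosaminoglycan genes, Xylt1, which adds the xylose that starts the linker, had 1.10 (adjusted p = 0.0183; 11 fits, not without C57BL/6 mutant replicate 6), B3gat3 -0.50 (0.0259; 7 fits), Fam20b 0.25 (0.0412; 3 fits), Csgalnact1 0.93 (0.0292; 5 fits) and Chst3 0.71 (0.0344; 4 fits). Bmp1 had -0.62 (adjusted p = 0.0129), Mmp9 -0.87 (0.00484) and Tgfb1 -0.60 (0.0167), each called in 12 of 12 fits, and Pcolce2 had 1.31 (0.0436; 3 fits). With scaling by total counts, B3gat3 (-0.28, adjusted p = 0.0819) and Podn (-0.54, 0.0812) were not called, Fam20b was 0.48, Bmp1 -0.40 and Tgfb1 -0.38. With the Y-linked covariate, Podn (adjusted p = 0.0506), Chst3 (0.066) and Fam20b (0.0542) were not called, nor was Fam20b with no filter (0.0589). In the same test, osteoclast markers were called lower for 5 of 5 genes (median log2 interaction -0.96), osteoblast markers for 4 of 9 (-0.62) and fibroblast and suture mesenchyme markers for 1 of 9. Erythroid markers were called higher for 6 of 7 (2.73), skeletal muscle markers for 4 of 7 (6.98), neutrophil markers for 2 of 6 (1.06) and chondrocyte markers for 1 of 9 (3.56). Skeletal muscle sums were uneven within groups, at 399.3, 25.05 and 3.494 CPM in BALB/c mutant samples. In C57BL/6 wild type samples they were 8.833, 73.05 and 3.163 CPM. The part of these cell types in the gene values above was not tested.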

How the results depend on the processing

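No paired analysis was possible because the groups compared share no replicate number. For genotype in C57BL/6, 5 SLRPs were called in the full fit, 3 with only the groups compared, and 3 to 6 with a sample left out (6 without C57BL/6 mutant replicate 4, which added Omd). For genotype in BALB/c, DESeq2 called 2 SLRPs where edgeR called 0, and 0 were called with any sample left out. For strain, 4 to 7 SLRPs were called in wild type with a sample left out (6 in the full fit), and in mutants 3 to 5 (3 in the full fit), with 4 under scaling by total counts. For the interaction, DESeq2 called 3 in place of 1, and 0 to 2 were called with a sample left out. Over all genes, 3867 were called for genotype in C57BL/6, 1458 with only the groups compared and 1724 to 4833 with a sample left out. For genotype in BALB/c the count was 22, against 323 with DESeq2, 44 with voom, 4 with scaling by total counts, 4 with the Y-linked covariate, 71 with only the groups compared, and 0 to 95 with a sample left out. For the interaction it was 1626, against 2707 with DESeq2 and 624 to 3129 with a sample left out. The causes were not tested. Scaling by total counts moved the median of all genes by -0.20 for genotype in C57BL/6 (13.2% of calls higher, 47.5% with TMM), -0.12 for strain in wild type (31.2% and 47.1%), 0.12 for strain in mutants (67.8% and 48.8%) and 0.23 for the interaction (90.5% and 54.4%).

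Values that changed sign were all from SLRPs not called; those with a sample left out are given beside the range over the 12 such fits. For genotype in C57BL/6 this was Prelp without C57BL/6 wild type replicate 3 (0.044, the upper end of a range from -0.201). For genotype in BALB/c these were Dcn with total-count scaling (0.031), with no filter (0) and without BALB/c replicates 13 (0.021), 14 (0.017) or 18 (0.065, range -0.073 to 0.065), Lum without replicates 14 (-0.016) or 17 (-0.006; range -0.016 to 0.06), and Kera without replicate 16 (-0.033, range -0.033 to 1.794). For strain they were Kera in wild type with the Y-linked covariate (0.12) and without C57BL/6 replicate 2 (0.447, range -0.713 to 0.447), and in mutants Dcn with total-count scaling (0.096) and without replicates 6 (0.09) or 18 (0.045; range -0.109 to 0.09), Lum with total-count scaling (0.041) and without replicate 5 (0.019, range -0.191 to 0.019), and Omd without replicate 4 (-0.009, range -0.009 to 0.178). For the interaction they were Omd (0.023) and Ogn (0.077) with total-count scaling and Fmod without replicate 17 (-0.061, range -0.061 to 0.224). Of the SLRPs, Kera had the fewest counts (36 to 492 per sample), and 3 samples a group limit every comparison.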
